A study of Mus musculus with 70 samples.

Results

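Chemokines and their receptors made up 57 of the 25089 gene symbols in the 3 deposited count tables. They were taken by symbol alone: Ccl, Cxcl, Cx3cl or Xcl followed by a number and at most 1 letter for the 39 ligands, and Ccr, Cxcr, Cx3cr or Xcr in the same way for the 18 receptors. Those that reached a mean of 0.5 CPM (counts scaled to 1000000 per library) in at least 1 of the 16 groups of libraries, 29 ligands and 13 receptors, are described here, 42 in all. The members nearest above that level were Ccl20, with a highest group mean of 0.523 CPM, and Cxcl5, with 0.536 CPM, and the nearest below was Ccl26, with 0.323 CPM. Among the other 15, the ligands Ccl21a, Ccl21b, Ccl21c, Ccl27b and Cxcl15 had no count in any library.

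Poly(A) RNA was sequenced from whole mouse liver and from macrophages sorted out of the liver as cells with high F4/80 and low CD11b. Male and female mice had been fed a control diet or a NASH diet, which produces nonalcoholic steatohepatitis (a fatty, inflamed liver), for 24 weeks. The WT mice carried Lyz2.Cre+/+ alone, in which the promoter of the myeloid gene Lyz2 drives Cre recombinase, so the control mice are not free of transgenes. The KI mice are labelled OpnKI Mye: the name reads as osteopontin (encoded by Spp1) knocked in within the myeloid lineage. Tissue, sex, genotype and diet make 16 groups of 4 libraries each, except that the macrophage NASH groups hold 5 each in males and 6 each in females.

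Chemokines are small secreted proteins that bind membrane receptors coupled to inhibitory G proteins and that draw leukocytes along a gradient. Ccl2 and Ccl7 act on Ccr2, which brings monocytes out of the bone marrow into an injured liver. Ccl3, Ccl5, Ccl6 and Ccl9 act on Ccr1, among others, which monocytes and macrophages carry, and Ccl4 is a related inflammatory ligand. Cxcl1, Cxcl2 and Cxcl3 draw neutrophils through Cxcr2, and the interferon-induced Cxcl9, Cxcl10 and Cxcl11 draw activated T cells through Cxcr3. Cxcl12 retains cells through Cxcr4, Cxcl13 guides B cells through Cxcr5, Cx3cl1 tethers Cx3cr1-positive monocytes, and Cxcl16 binds Cxcr6 on T and NKT cells. Kupffer cells, the resident macrophages of the liver sinusoid, secrete many of these ligands, and hepatocytes, stellate cells and endothelial cells supply others.

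Total counts per library ran from 11245097 to 29966174. Replicates 3 and 4 of the WT control group in male liver differed by less than counting noise and were counted as 1 library (their mean chi-square was 0.0671, while all 121 remaining pairs within groups had 2.05 to 11.9), which leaves 3 in that group and 69 libraries in all. In 3 deposited libraries, those 2 and the male macrophage WT control replicate 4, the sex-linked genes went against the label. Spp1, the gene of the knock-in, was on control diet at 0.277 to 0.55 CPM in WT macrophages of males, where KI macrophages held 7.10 to 11.5 CPM, and females had 0 to 0.193 and 1.43 to 2.36 CPM. On the NASH diet its WT and KI ranges overlapped in the macrophages of both sexes, and in male liver it was higher in WT (127 to 563 CPM) than in KI (22.5 to 66 CPM). Lyz2 was under 1000 CPM in 10 of the 38 macrophage libraries, mostly of females on control diet, so that macrophage counts are given below also without these. Lyz2 also differed between liver groups. On control and NASH diet it was at 38.4 to 76.4 and 127 to 250 CPM in male WT livers. Male KI livers held 0.5 to 27.5 and 1.12 to 55.1 CPM, and female WT livers 1.1 to 2.48 and 1.29 to 2.19 CPM. The labels do not say why, and its part in the liver comparisons was not tested. The resident Kupffer cell list summed to 16210 to 46490 CPM in every macrophage library. Nothing in the labels says which mice or preparations the replicates came from, so the p-values measure the spread between libraries, which may be technical.

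Which chemokine genes whole liver and its sorted macrophages carry was compared first. Over the libraries of all groups, the members summed to 345 to 906 CPM in liver and to 2041 to 7051 CPM in macrophages. A mean of 0.5 CPM in at least 1 of the 8 groups of a tissue was reached by 35 members in liver and 38 in macrophages, one of 10 CPM by 8 and 23, and one of 100 CPM by 2 and 15. The homeostatic ligand Cxcl12 alone made up 52.9 to 73.9% of the members' summed CPM in the liver groups. The order of the members is given for WT mice on control diet. Scaled per kilobase of exon, so that genes can be set side by side, Cxcl12 stood at 36.8 CPM per kb in male liver, ahead of Ccl9 at 15.8, the neutrophil chemokine Cxcl1 at 7.64 and Ccl6 at 5.91. In female liver Cxcl12 stood at 59.3 CPM per kb, Ccl9 at 19.7 and the interferon-induced Cxcl9 at 9.18. The order in macrophages was another one. Male macrophages were led by Ccl6 at 431 CPM per kb and Cxcl2 at 413, followed by Ccl3 at 326, Ccl4 at 299, the B cell chemokine Cxcl13 at 169, the eosinophil chemokine Ccl24 at 154, Ccl2 at 108 and Cxcl16 at 106. In female macrophages Ccl6 stood at 355, Cxcl13 at 228, Ccl3 at 190, Ccl24 at 165, Cxcl2 at 135 and Ccl4 at 129.

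In males 21 of 40 members tested were higher in macrophages and 6 were lower (edgeR quasi-likelihood test, adjusted p under 0.05). Of all 13872 genes tested 79.5% passed in this comparison, so a call as such says little, and the sizes are given instead. The difference between macrophages and liver (log2 fold change, SE in parentheses) was 11.08 (0.67) for Cxcl2, and 10.63 for Ccl3, 10.05 for Ccl4, 9.27 for Ccl7 and 7.05 for Ccl2. For the receptor Cxcr4 it was 5.38. The largest of these sizes rest on few liver reads and are rough. The male WT control livers summed to 13 counts of Cxcl2, 5 of Ccl3, 6 of Ccl4 and 31 of Ccl2, and the female ones to 22 of Cxcl2 and 45 of Ccl2. The members lower in macrophages, named for their direction and not their size, were the neutrophil receptor Cxcr2 (-5.82), the lymph node chemokine Ccl19 (-3.97), Cxcl12 (-3.59, SE 0.48), the skin chemokine Ccl27a (-2.45), Cxcl11 (-2.22) and Ccl25 (-0.55). In females 22 of 40 were higher and 9 lower, with 82.8% of all 14126 genes called. Cxcl2 (9.60), Ccl7 (9.21), Ccl3 (8.94), Ccl4 (7.71) and Ccl2 (7.51) again had large differences, and the members lower in macrophages included Cxcl11 (-4.37), Cxcl12 (-3.94), the T cell receptor Cxcr6 (-3.92), Ccl9 (-2.63) and Ccr9 (-2.82). Members' median differences were 2.46 in males and 1.81 in females. Liver RNA and macrophage RNA were isolated with different kits, so tissue and kit cannot be told apart.

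**Figure D1:**
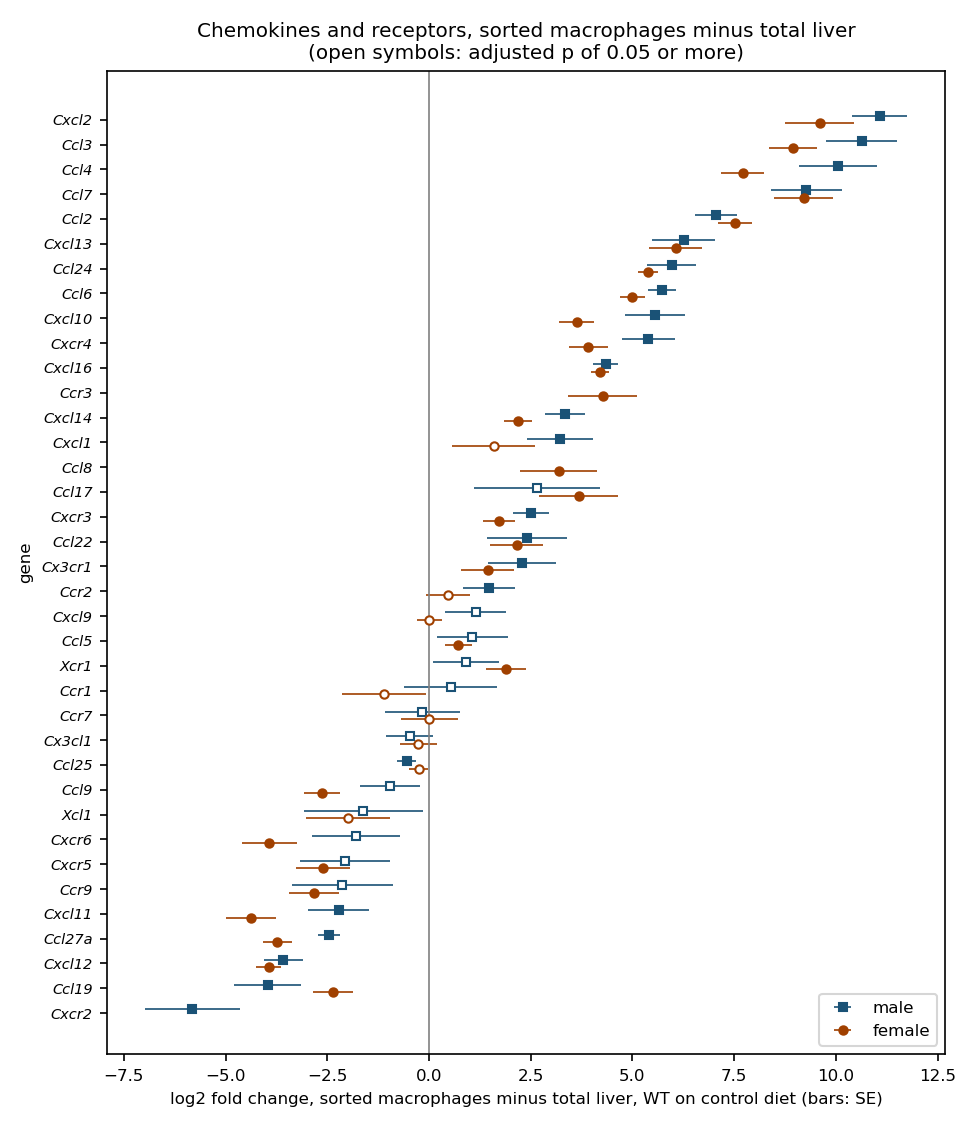
Difference between sorted macrophages and whole liver in WT mice on control diet (log2 fold change of the edgeR fit, horizontal axis, bars 1 SE) for members tested in males and in females, with open symbols where the adjusted p was 0.05 or more. Members without a count in 1 of the tissues, 4 in males and 3 in females, are left out, and Cxcl2, Ccl3 and Ccl4 lie farthest to the right in males while Cxcl12 and Ccl19 lie to the left.

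In male liver, the NASH diet raised 10 of the 32 members tested in WT mice and lowered none, while 20.9% of all 12988 genes tested passed. The members' median log2 fold change was 1.13, against -0.01 for all genes. Ligands and receptors of the monocyte axes were both among them: Ccl2 with Ccr2, and Cx3cl1 with Cx3cr1. The ligands Ccl3, Ccl6, Ccl22, Cxcl14 and Cxcl16 were also called. Ccl3 and Ccl22, with 5 and 10 counts over the WT controls, passed the filter through other groups and could only be called higher here. The mean of Ccl22 was under 0.5 CPM in every male liver group but WT NASH. In none of the 10 did the WT control and WT NASH libraries overlap, which also held for 87% of all genes called.

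Ccl2, the ligand that recruits monocytes, was at 0.321, 0.459 and 1.2 CPM in the 3 WT control livers and at 6.41, 3.92, 4.08 and 3.14 CPM in the 4 WT NASH livers. Its log2 fold change was 2.70 (SE 0.44, adjusted p = 0.0017). All WT NASH libraries lay above all WT control libraries. Ccr2, its receptor, was at 0.963, 0.917 and 1.83 CPM on control diet and at 12.9, 5.91, 10.8 and 6.96 CPM on NASH diet, a log2 fold change of 2.88 (SE 0.45, adjusted p = 0.0014), again with no overlap. Cx3cr1, the receptor of patrolling monocytes and of some tissue macrophages, was at 0.802, 0.344 and 1.83 CPM on control diet and at 22.2, 4.31, 13.4 and 7.58 CPM on NASH diet (log2 fold change 3.58, SE 0.74, adjusted p = 0.0058). The first WT NASH library held the highest value of all 3 genes.

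Its membrane-bound ligand Cx3cl1 ranged from 0.917 to 1.77 CPM in WT control and from 2.49 to 14.9 CPM in WT NASH livers (log2 fold change 2.28, SE 0.63, adjusted p = 0.022). Cxcl16, the ligand of Cxcr6, ranged from 9.06 to 14.4 CPM and from 19.9 to 39.8 CPM (1.17, SE 0.24, adjusted p = 0.006). Cxcl14, a chemokine made by epithelia and fibroblasts, was at 1.84, 1.03 and 2.28 CPM on control diet and at 9.73, 5.53, 6.64 and 3.54 CPM on NASH diet (1.89, SE 0.49, adjusted p = 0.016). Ccl22, which macrophages and dendritic cells make to draw regulatory T cells, was at 0, 0.172 and 0.443 CPM and at 3.49, 1.05, 1.81 and 0.865 CPM (3.04, SE 0.96, adjusted p = 0.037). All WT NASH libraries of Cxcl14 and of Ccl22 lay above all their WT control libraries. Ccl3 (3.06, adjusted p = 0.044) and Ccl6 (0.84, adjusted p = 0.047) were nearest to the threshold among those called, and Cxcl10 (1.74, adjusted p = 0.068) was the nearest not called. Cxcl12 was at 237, 261 and 405 CPM on control diet and at 240, 217, 295 and 299 CPM on NASH diet and was not called. Without WT control replicate 1, or without replicate 2, 4 members were called in place of 10. All genes called fell as well, from 2710 to 1387 and 1109. The calls of Ccl2, Ccr2, Cx3cr1 and Cxcl16 were kept in each fit that left out 1 library.

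Between the genotypes on the NASH diet, 12 of 32 members were lower in KI than in WT male livers and none was higher, with 37% of all genes called and a median of -0.90 for the members against -0.02 for all genes. The share of members called is near that of all genes, so the count as such is not particular to them. This comparison and the diet comparison in WT use the same 4 WT NASH libraries. Ccl2 was at 0.821, 0.367, 0.541 and 0.743 CPM in KI NASH livers, below every WT NASH library (log2 fold change -2.81, SE 0.38, adjusted p = 0.00019). Ccr2 was at 2.46, 1.41, 2.5 and 1.11 CPM (-2.27, SE 0.38, adjusted p = 0.0006), also below every WT NASH library. Both genes overlapped between KI NASH and KI control livers, which held 0.588, 0.561, 0.303 and 0.336 CPM of Ccl2 and 2.46, 2.15, 1.47 and 0.785 CPM of Ccr2.

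Among the other ligands, Cxcl16 ranged from 8.73 to 13.6 CPM in KI NASH livers (-1.21, SE 0.22, adjusted p = 0.0011) and Cx3cl1 from 1.15 to 3.28 CPM (-1.82, adjusted p = 0.017). Ccl9, a ligand of Ccr1, was at 29.2, 21.7, 20.2 and 15.9 CPM in KI NASH against 111, 41.7, 32.3 and 34.4 CPM in WT NASH livers (-1.34, SE 0.33, adjusted p = 0.0069), with no overlap. It was also at 29.5, 25.6, 21.8 and 25.8 CPM in KI control and 39.9, 46.1 and 57.9 CPM in WT control livers. Cxcl14 was at 3.88, 1.62, 2.81 and 1.07 CPM (-1.43, adjusted p = 0.016), and Ccl22 at 1.09, 0.157, 0.0677 and 0.0928 CPM (-2.36, adjusted p = 0.027). In both genes the first KI NASH library lay within the WT NASH range. Cxcl10, which did not pass in the diet comparison, was at 4.38, 1.78, 1.22 and 1.62 CPM in KI NASH against 11.8, 4.97, 6.64 and 3.38 CPM in WT NASH (-1.58, adjusted p = 0.04). Ccl3 was lower as well (-2.10, adjusted p = 0.042). Ccl3 and Ccl22, with 20 and 31 counts over the KI NASH livers, passed the filter through other groups. Both could only be called lower here, and both are among the members counted as lower.

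Further receptors that were lower in KI NASH livers were Ccr7, which guides dendritic cells and naive T cells (0.157 to 0.867 CPM against 0.747 to 3.62 CPM, -2.01, adjusted p = 0.016), and Cx3cr1 (8.39, 1.21, 4.03 and 2.97 CPM, -1.52, adjusted p = 0.049). The nearest not called was Cxcr3 (-1.10, adjusted p = 0.073). In 6 of the 12 the WT NASH and KI NASH libraries did not overlap, a lower share than the 82.9% of all genes called. Without WT NASH replicate 1 the count fell to 5, and without KI NASH replicate 2 or replicate 3 to 7. All genes called fell as well, from 4810 to 3799, 3970 and 3874. The calls of Ccl2, Ccl9, Ccr2 and Cxcl16 were kept in every fit that left out 1 library.

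The diet effect in KI male livers was itself small: none of the 32 members and no gene at all (0%) passed, with 3 members (6.52% of all genes) at an unadjusted p under 0.05, and DESeq2 called none of the members and 0.34% of all genes. The members' median was -0.07. On control diet no member passed between KI and WT by edgeR or DESeq2, with 4.63% and 10.6% of all genes called. An unadjusted p under 0.05 was found for 3 members there and for 23.2% of all genes. The difference of the diet effect between the genotypes passed for Ccr2 alone (-2.74, SE 0.58, adjusted p = 0.045; 1.13% of all genes), with Ccl2 nearest (-2.24, adjusted p = 0.088). That call was lost in 12 of 15 fits that left out 1 library, among them those without WT control replicate 1 (adjusted p = 0.11) and replicate 2 (adjusted p = 0.12).

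**Figure D2:**
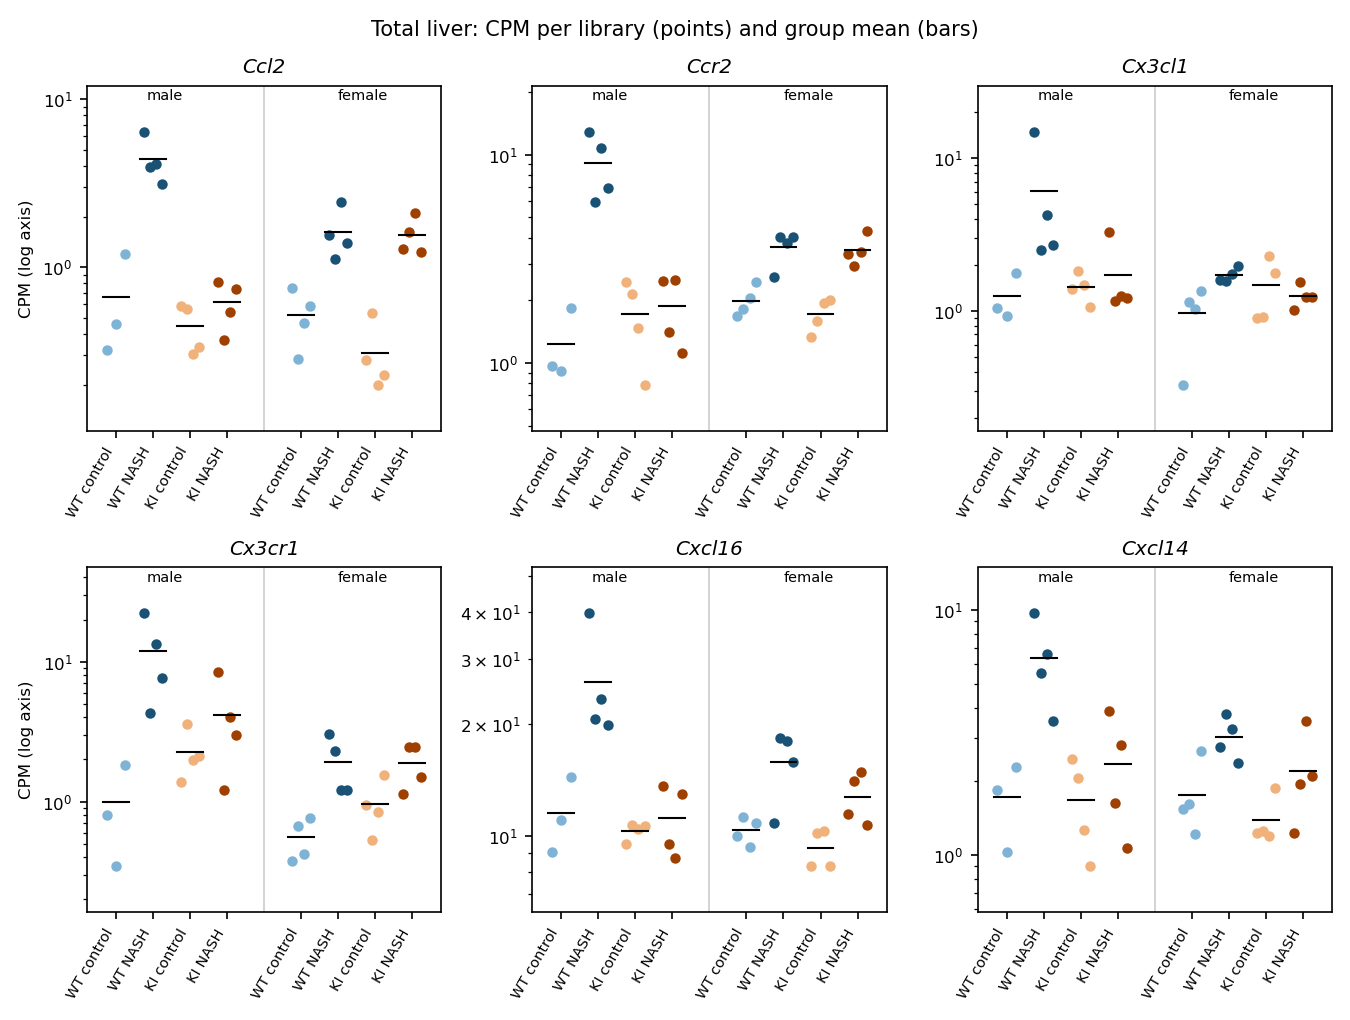
CPM per library on a log axis for Ccl2, Ccr2, Cx3cl1, Cx3cr1, Cxcl16 and Cxcl14 in whole liver, by sex, genotype and diet; each point is 1 library and the short bars are group means. In males the WT NASH libraries of Ccl2 and Ccr2 stand above those of the other 3 male groups, and in females both NASH groups stand above the KI controls in Ccl2.

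Because whole liver is a mixture, fewer cells of a type and less RNA per cell cannot be told apart. Markers of other cell types moved with these groups. The cholangiocyte list summed to 138 to 633 CPM in male WT NASH livers, 30.7 to 36.3 CPM in WT control and 29.5 to 74.3 CPM in KI NASH livers, and the stellate cell list to 658 to 1371, 327 to 495 and 299 to 436 CPM. The dendritic cell list ran from 23.1 to 48 CPM in WT NASH and from 17 to 22.1 CPM in WT control livers. The recruited monocyte list summed to 988 to 1546 CPM in WT NASH livers. That sum was lower than in WT control (2274 to 2730 CPM) and KI NASH livers (2564 to 3914 CPM). Of the list's 10 genes, 4 were under 0.5 CPM in WT control and 0 in WT NASH livers, so these rose while the sum fell. In KI NASH livers 0 were under that level as well. The sum therefore does not follow all its genes and is not read here as a measure of monocytes. The hepatocyte list summed to 82850 to 91160 CPM in WT NASH, 115000 to 184800 CPM in WT control and 88160 to 126300 CPM in KI NASH livers. The resident Kupffer cell list overlapped among all 3 groups (751 to 1124, 894 to 1114 and 880 to 1363 CPM). The lipid-associated macrophage list overlapped between WT NASH (284 to 1001 CPM) and WT control (333 to 521 CPM). It was at 96.3 to 191 CPM in KI NASH and at 80.9 to 120 CPM in KI control livers. Spp1, the gene of the knock-in, is in this list and was at 127 to 563 CPM in WT NASH livers. Spp1 and the list's Fabp5 were lower in macrophages than in liver of WT female controls (log2 fold change -8.40 and -6.13). In liver the list is therefore not a measure of macrophages alone. Its genes Trem2 and Gpnmb, which lipid-associated macrophages express, differed more than its sum and were at 8.13 to 13.6 and 15.1 to 54.3 CPM in WT NASH livers, at 0.321 to 1.33 and 0.241 to 0.443 CPM in WT control, and at 0.419 to 1.9 and 0.135 to 0.912 CPM in KI NASH livers. The lowest sum in WT NASH (284 CPM) was under the lowest in WT control (333 CPM), although Spp1, Trem2 and Gpnmb were higher. Other genes of the list therefore went the other way. The part of these cell types in the chemokine levels was not tested.

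In female liver the WT diet comparison called none of 30 members by edgeR, and 0.0526% of all 13315 genes. The unadjusted p was under 0.05 for 11 members and 13.7% of all genes, and DESeq2 called 5 members and 2.19% of all genes. Ccl2 came nearest, at 0.747, 0.286, 0.466 and 0.586 CPM on control diet and 1.55, 1.11, 2.44 and 1.39 CPM on NASH diet (log2 fold change 1.63, SE 0.35, adjusted p = 0.09). All 4 NASH libraries lay above all 4 controls. Cx3cr1, at 0.373 to 0.767 and 1.21 to 3.02 CPM, had 1.78 (adjusted p = 0.10), and Ccr2, at 1.68, 1.81, 2.05 and 2.44 CPM and at 2.59, 4, 3.78 and 4.02 CPM, had 0.85 (adjusted p = 0.11). In KI females the NASH diet raised 5 members and lowered none, with 8.83% of all genes called. Ccl2 rose from 0.278, 0.53, 0.199 and 0.228 CPM to 1.28, 1.62, 2.1 and 1.24 CPM (2.31, SE 0.38, adjusted p = 0.0055), and Ccr2 from 1.34, 1.59, 1.94 and 2 CPM to 3.32, 2.94, 3.42 and 4.3 CPM (1.02, SE 0.21, adjusted p = 0.01). Neither gene's groups overlapped.

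The interferon-induced ligands Cxcl11 (0.501, 1.3, 0.746 and 0.514 CPM against 3.27, 2.89, 2.01 and 3.33 CPM, 1.88, adjusted p = 0.02) and Cxcl10 (0.946, 4.43, 1.69 and 1.66 CPM against 7.23, 4.24, 4.66 and 5.38 CPM, 1.28, adjusted p = 0.046) also rose in KI females. In Cxcl10 the second control library lay within the NASH range. Between the genotypes on control diet 3 of the 30 members were lower in KI and none was higher. The KI control livers lay below the WT controls in Cxcl11, which the WT controls held at 1.87, 1.81, 2.7 and 3.79 CPM (KI minus WT -1.71, SE 0.45, adjusted p = 0.034). Cxcr6 was lower as well, at 0.779, 0.385, 0.845 and 0.457 CPM against 0.747, 1.95, 1.77 and 1.44 CPM (-1.25, SE 0.33, adjusted p = 0.032), and 7.57% of all genes were called there. The diet comparison in KI and the genotype comparison on control diet share the KI control libraries. Without KI control replicate 3 or 4 the diet comparison in KI called 3 members. Without KI control replicate 4, or WT control replicate 3 or 4, the genotype comparison called 1. On the NASH diet no member passed between KI and WT by edgeR (0.0901% of all genes). An unadjusted p under 0.05 was found there for 2 members and 13% of all genes, and DESeq2 called no member and 1.12% of all genes. The diet effect differed between genotypes for no member by edgeR (4.77% of all genes), with 11 members and 22.8% of all genes at an unadjusted p under 0.05, and 4 members and 8.59% of all genes by DESeq2.

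The sexes were compared directly. The signed KI minus WT value on the NASH diet was higher in females than in males for 4 members, with 14% of all 13415 genes called. They were Ccl2 (difference of log2 fold changes 2.74, SE 0.49, adjusted p = 0.00071), Ccr2 (2.21, SE 0.41, adjusted p = 0.00095), Cxcl16 (0.88, SE 0.27, adjusted p = 0.03) and Ccr7 (2.31, SE 0.72, adjusted p = 0.031). KI minus WT was -2.81 in males and -0.05 in females for Ccl2, and -2.27 and -0.04 for Ccr2. It was -1.21 and -0.30 for Cxcl16, and -2.01 and 0.33 for Ccr7. Of these, Ccl2 and Ccr2 kept their calls in every fit that left out 1 library. The count fell to 2 without male WT NASH replicate 1, male KI NASH replicate 2 or 3 or female WT NASH replicate 4, and rose to 7 without male KI NASH replicate 1. All genes called fell from 1881 to 1312, 1454, 1485 and 1307, and to 1644 in the last of these fits. The diet effect in WT was smaller in females than in males for Ccr2 alone (-1.98, SE 0.46, adjusted p = 0.029, 1.64% of all genes), a call that was lost in 5 of 15 fits, among them those without male WT control replicate 1 (adjusted p = 0.084) or 2 (adjusted p = 0.11). The male WT control group holds 1 library whose sex-linked genes go against its label.

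**Figure D3:**
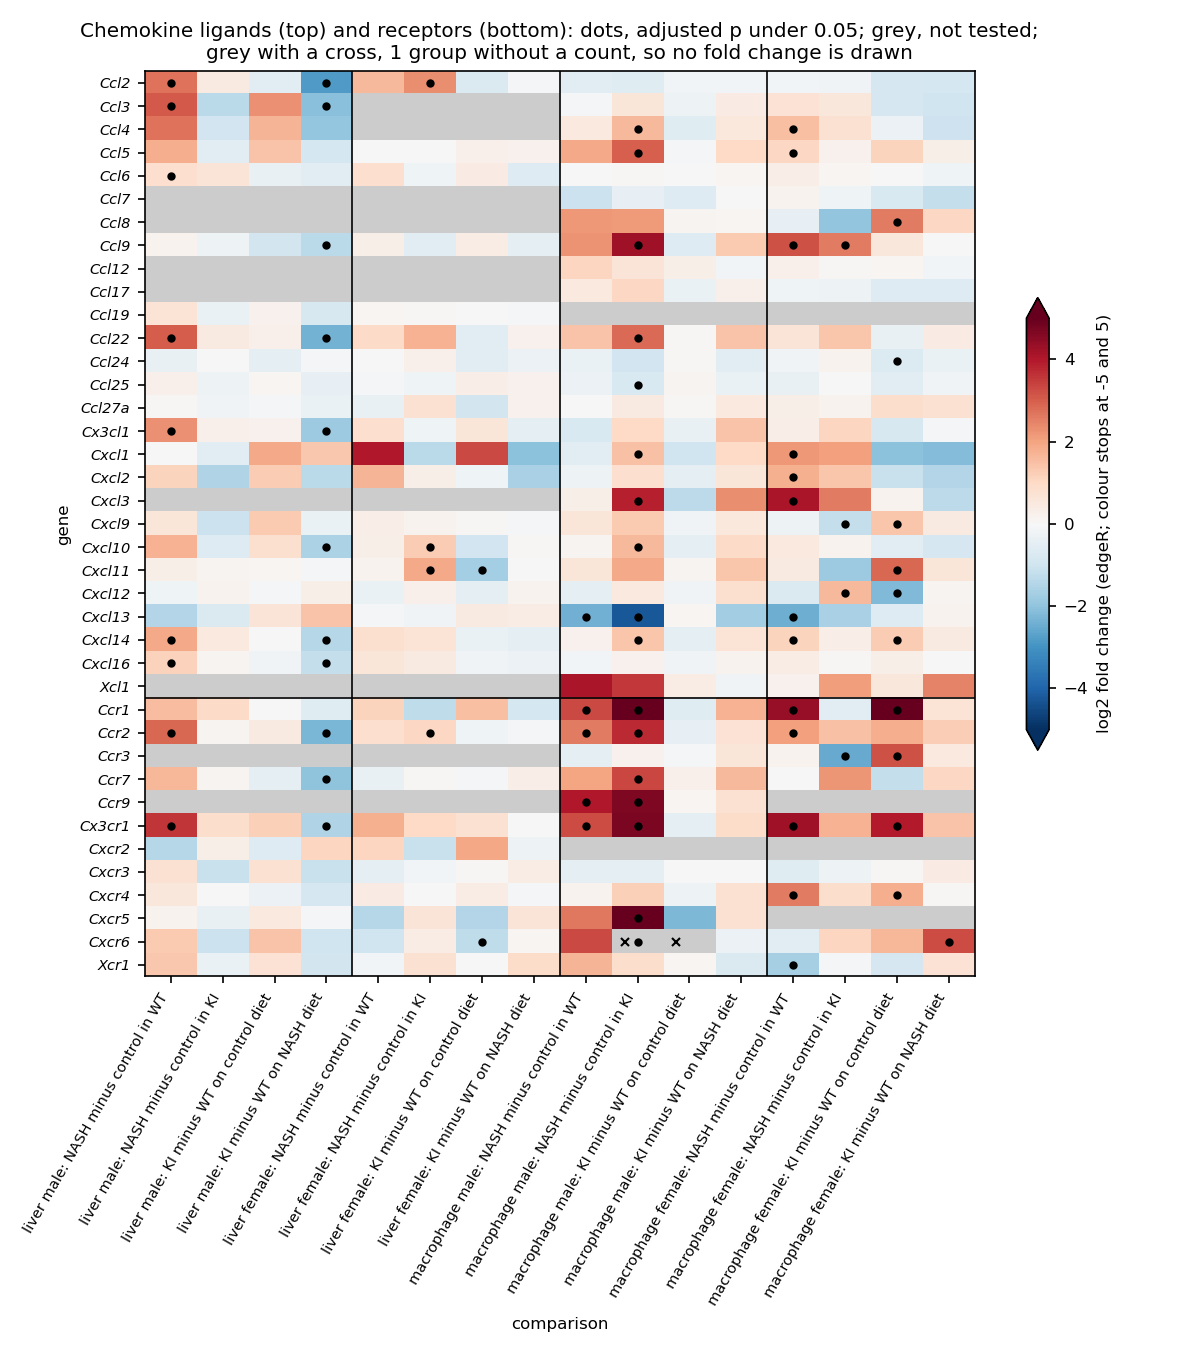
Log2 fold changes of the edgeR fits for 39 members tested in at least 1 of 16 comparisons (27 ligands above, 12 receptors below), in colour, with a dot in the 76 cells that passed at an adjusted p under 0.05. The colour scale stops at a log2 fold change of 5 in either direction, grey cells were not tested, and grey cells with a cross are Cxcr6 where the KI control group had no count; the dots crowd in male liver WT diet and KI minus WT on NASH diet, and in male macrophage KI diet.

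In male macrophages the question was whether the sorted resident cells themselves changed. In WT males the NASH diet raised 4 of 38 members and lowered 1, with 8.19% of all 13036 genes called and a members' median of 0.26. Cx3cr1 stood at 2.9, 12.7, 6.05 and 4.59 CPM on control diet and at 34, 117, 34.5, 77.7 and 57 CPM on NASH diet (log2 fold change 3.28, SE 0.62, adjusted p = 0.013). Cxcl13, a ligand that control macrophages express strongly, went the other way, from 216, 185, 199 and 178 CPM to 38.2, 11, 43.3, 42.1 and 47.9 CPM (-2.41, SE 0.52, adjusted p = 0.017). Every NASH library lay beyond every control library in both genes.

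The receptors Ccr2 (2.9, 5.87, 5.49 and 4.54 CPM against 20.2, 50.6, 11.6, 44.9 and 16.9 CPM, 2.61, SE 0.57, adjusted p = 0.018), Ccr9, the receptor of the gut chemokine Ccl25 (0 to 0.11 CPM against 0.178 to 3.29 CPM, 4.01, SE 1.12, adjusted p = 0.038), and Ccr1 (0.493, 1.42, 0.877 and 0.374 CPM against 2.85, 25.7, 2.02, 7.9 and 1.58 CPM, 3.30, SE 0.98, adjusted p = 0.048) also rose. None of the 5 had overlapping groups, nor had 76.1% of all genes called, and Cxcr6 (3.31, adjusted p = 0.063) was the nearest not called. Ccr9, near 0 in WT controls, passed the filter through other groups and could only be called higher. The WT control replicate 4 both has contradicting sex-linked genes and is low in Lyz2. Without the library of contradicting sex 2 members were called. Without the low-Lyz2 libraries none was, with adjusted p of 0.058 for Cx3cr1 (log2 fold change 3.18), 0.060 for Cxcl13 (-2.42), 0.069 for Ccr2 (2.63), 0.10 for Ccr9 (4.05) and 0.14 for Ccr1 (3.11). The count was 1 without WT control replicate 2, 3 when WT control replicate 1, WT control replicate 3 or WT NASH replicate 4 was left out, and 8 with WT NASH replicate 3, or KI NASH replicate 5, left out. In these fits all genes called went from 1068 to 83, to 524, 298 and 277, and to 1412 and 1358. They were 284 without the library of contradicting sex and 55 without the low-Lyz2 libraries. Cx3cr1 kept its call in each of those fits that left out 1 library.

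In KI males the NASH diet raised 15 of 38 members and lowered 2, with 24% of all genes called. The members' median was 1.25 against 0.01 for all genes. The fall of Cxcl13 was from 204, 337, 161 and 127 CPM to 13.5, 1.52, 19.4, 4.41 and 16.6 CPM (-4.22, SE 0.56, adjusted p = 0.00047). Cx3cr1 rose from 2.92, 11, 3.3 and 1.61 CPM to 139, 242, 91.3, 78.3 and 54 CPM (4.69, SE 0.66, adjusted p = 0.00058), and Ccr2 from 1.49, 6.7, 3.53 and 2.56 CPM to 54.5, 91.6, 38.6, 37.7 and 12.4 CPM (3.72, SE 0.60, adjusted p = 0.00099). In these 3 genes every NASH library lay beyond every control library.

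Ccr1 rose from 0.286, 1.29, 0.459 and 0.0595 CPM to 43.1, 41.5, 26.2, 21 and 1.83 CPM (5.66, SE 1.09, adjusted p = 0.0021), and its ligand Ccl9 from 18.6, 37.3, 16.7 and 12.7 CPM to 724, 400, 394, 426 and 48 CPM (4.22, SE 0.92, adjusted p = 0.0042). In both, KI NASH replicate 5 lay far below the other 4 NASH libraries, though above the controls. The same library was lowest in Ccl22, at 1.13 CPM against 10.7, 11.3, 14.2 and 21.3 CPM in the other 4 (controls 3.27, 0.999, 1.47 and 0.833 CPM; 2.83, SE 0.64, adjusted p = 0.0051). Its Kupffer cell list summed to 37710 CPM, against 16210 to 23970 CPM in the other KI NASH libraries, and its lipid-associated macrophage list to 991 CPM, against 3317 to 5555 CPM.

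Other ligands that rose were the neutrophil chemokine Cxcl3 (0.119 to 0.588 CPM against 0.392 to 9.18 CPM, 3.89, adjusted p = 0.0046) and the T cell chemokine Ccl5 (2.44 to 4.4 CPM against 3.22 to 42.2 CPM, 3.01, adjusted p = 0.0062). Among the receptors, Ccr9 had 4.65 (adjusted p = 0.0068) and Ccr7 3.33 (adjusted p = 0.011). Cxcr5, the receptor of Cxcl13, had 0 to 0.0459 CPM in KI controls, from 1 count over the 4 libraries, and 0.0513 to 4.03 CPM in KI NASH (adjusted p = 0.01). Cxcr6 had no count in the 4 KI control libraries and 0.308, 1.85, 0.63, 1.99 and 0.478 CPM in KI NASH (adjusted p = 0.0073). Against a floor of 3 counts over that group it was at least 4.69 higher on the log2 scale. Cxcr5 and Cxcr6, with 1 and 0 counts in KI controls, passed the filter through other groups. They could only be called higher here, and are among the 15 raised. The other 5 of the 17, with smaller changes, were Cxcl14 (23.7, 11.9, 20.7 and 12 CPM against 75, 52.4, 36.6, 34.4 and 23.3 CPM, 1.37, adjusted p = 0.0077) and Ccl4 (138, 110, 168 and 108 CPM against 693, 334, 322, 480 and 170 CPM, 1.61, SE 0.47, adjusted p = 0.02), with Cxcl10 (1.61), Cxcl1 (1.45) and Ccl25 (-0.77). In 10 of the 17 the groups did not overlap, a property of 75.1% of all genes called. Without the low-Lyz2 library, KI control replicate 3, 15 of the 17 were called, with Cxcl1 (adjusted p = 0.058) and Ccl25 (adjusted p = 0.081) lost, and 12 of the 17 kept their calls in every fit that left out 1 library. Cxcr5 fell below the filter in 4 of those 18 fits.

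Between KI and WT macrophages of males no member passed on control diet by edgeR or DESeq2 (0% and 0.022% of all genes), and an unadjusted p under 0.05 was found for 0 members and 6.61% of all genes. On NASH diet no member passed by edgeR either (3.13% of all genes), with 9 members and 16.9% of all genes at an unadjusted p under 0.05, and 3 members and 5.73% of all genes called by DESeq2. The nearest were Cxcl13 (-1.72, adjusted p = 0.077) and Cxcl3 (2.31, adjusted p = 0.094). The difference of the diet effects passed for no member by edgeR (0% of all genes), with 7 members and 12.2% of all genes at an unadjusted p under 0.05, and 1 member and 1.83% of all genes by DESeq2, so the 17 members in KI and the 5 in WT are not shown to be a different response. In liver of the same sex and diet Ccl2 and Ccr2 were lower in KI, whereas in the sorted macrophages the KI minus WT values were -0.15 (SE 0.31, adjusted p = 0.83) for Ccl2 and 0.70 (SE 0.48, adjusted p = 0.47) for Ccr2; the difference between the 2 tissues was not tested.

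**Figure D4:**
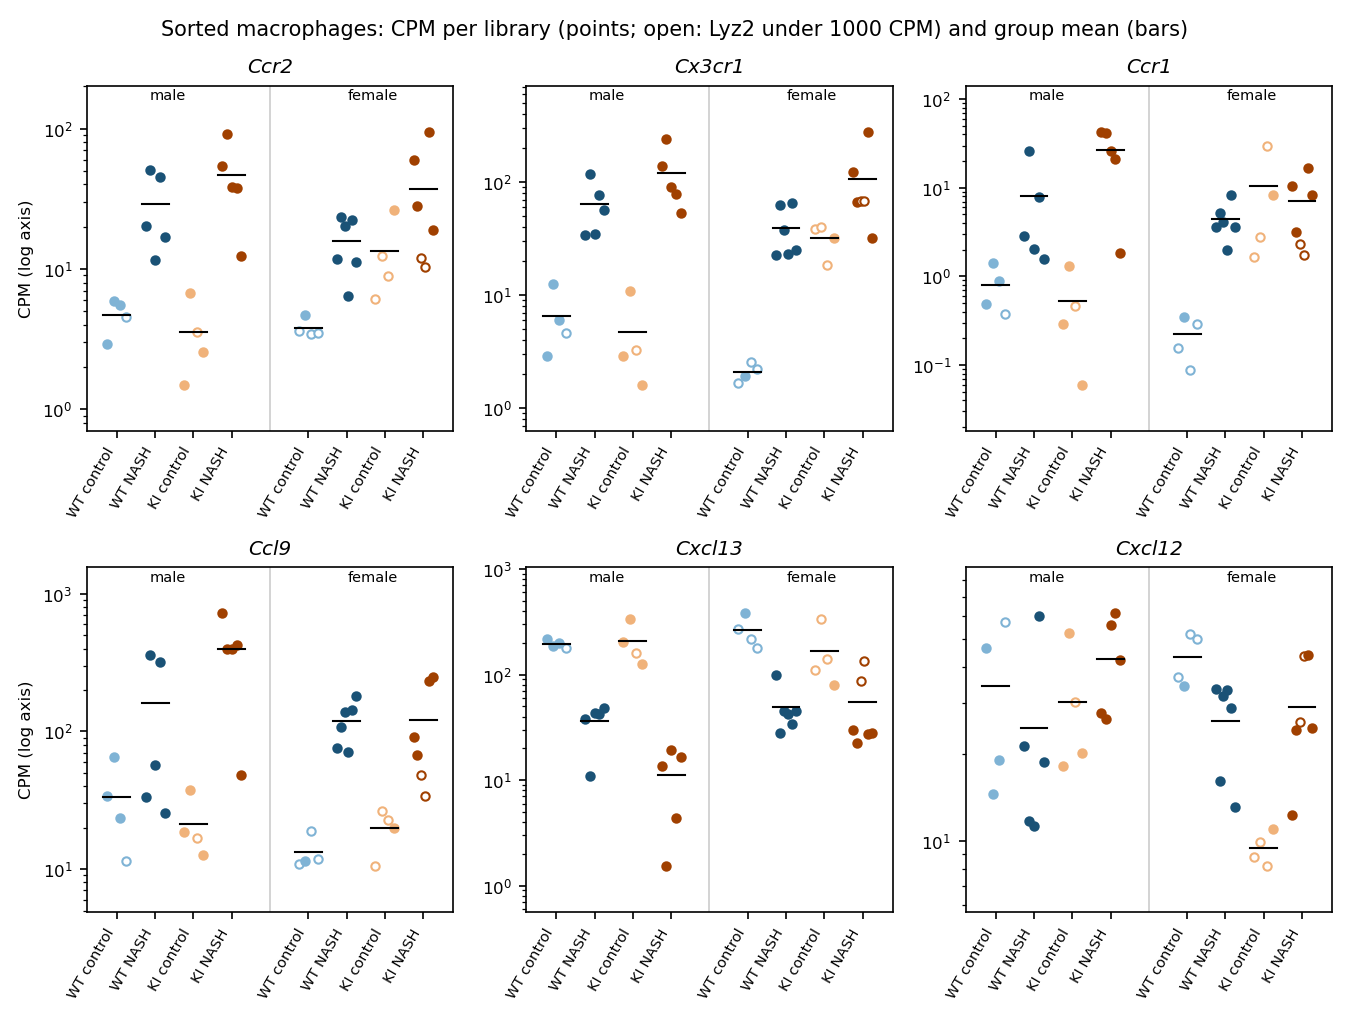
CPM per library on a log axis for Ccr2, Cx3cr1, Ccr1, Ccl9, Cxcl13 and Cxcl12 in the sorted macrophages, by sex, genotype and diet; each point is 1 library, short bars are group means, and open points are libraries with Lyz2 under 1000 CPM. Cxcl13 is lower and Cx3cr1 and Ccr2 are higher in every NASH library of males than in the male controls of the same genotype.

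Marker lists moved with the diet in the sorted KI male cells too, and some of them in WT. The resident Kupffer cell list summed to 39100 to 43640 CPM in KI control and 16210 to 37710 CPM in KI NASH libraries, and to 42540 to 45610 and 23570 to 41080 CPM in WT. Timd4, a marker of resident Kupffer cells, was at 735 to 924 CPM in KI control and 29.3 to 417 CPM in KI NASH libraries. The lipid-associated macrophage list was at 512 to 596 CPM in KI control and 991 to 5555 CPM in KI NASH libraries. The hepatocyte list was at 163 to 253 CPM in KI control and 426 to 2589 CPM in KI NASH libraries, and the cholangiocyte list at 7.45 to 11.9 and 42.7 to 201 CPM. The recruited monocyte list as a sum overlapped between KI control (232 to 440 CPM) and KI NASH (222 to 376 CPM). Its median sum was 351 CPM in KI control and 297 CPM in KI NASH libraries, so the list did not rise as a whole. Among its genes, Ly6c2, Chil3 and F13a1 were at most 0.238, 0.0917 and 0.178 CPM in male controls. These genes were at 0.821 to 6.35, 0.217 to 4.59 and 0.348 to 8.1 CPM in KI NASH libraries. The T and NK cell list, whose cells carry Cxcr6 and Ccl5, was at 2.5 to 6.7 CPM in KI control and 7.08 to 43 CPM in KI NASH libraries. In WT males the lipid-associated list (562 to 914 and 656 to 3756 CPM on control and NASH diet) overlapped between diets. So did the hepatocyte list (111 to 462.5 and 61.9 to 296 CPM) and the T and NK list (4.17 to 8.2 and 2.3 to 49.8 CPM). The WT cholangiocyte list did not (0.321 to 0.877 and 6.42 to 53.8 CPM). The part of these cells in the members' changes was not tested.

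In female macrophages 8 of the 10 low-Lyz2 libraries fall, among them 3 of 4 WT controls and 3 of 4 KI controls, so the counts are given with and without them. In WT females the NASH diet raised 11 of 36 members and lowered 2 (12.9% of all 12838 genes). Cx3cr1 was at 1.66, 1.93, 2.57 and 2.22 CPM on control diet and at 22.7 to 65.4 CPM (median 31.5, 6 libraries) on NASH diet (4.24, SE 0.60, adjusted p = 0.00062). Ccl9 was at 10.8, 11.5, 18.9 and 11.9 CPM and at 70.6 to 180 CPM (median 123; 3.17, SE 0.53, adjusted p = 0.0017), and its receptor Ccr1 at 0.154, 0.351, 0.0887 and 0.289 CPM and at 1.99 to 8.4 CPM (median 3.86; 4.36, SE 0.98, adjusted p = 0.01). Cxcl13 fell from 271, 383, 216 and 180 CPM to 28.2 to 98.9 CPM (median 43.5; -2.42, SE 0.50, adjusted p = 0.0067). Every NASH library of these 4 genes lay beyond every control library.

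Cxcr4, the receptor of Cxcl12, rose from 38.4 to 56.5 CPM to 152 to 359 CPM (2.62, SE 0.39, adjusted p = 0.00079), and Ccr2 from 3.59, 4.68, 3.41 and 3.52 CPM to 6.45 to 23.5 CPM (median 16; 2.07, SE 0.61, adjusted p = 0.035). The neutrophil chemokines rose together: Cxcl3 (4.08, adjusted p = 0.0045), Cxcl1 (2.18, adjusted p = 0.037) and Cxcl2 (1.76, adjusted p = 0.02). Cxcl3 and Ccr1, with 6 and 18 counts over the WT controls, passed the filter through other groups and could only be called higher here. Ccl4 rose from 106, 95.9, 62.1 and 75.8 CPM to 100.5 to 466.3 CPM (median 192; 1.5, SE 0.37, adjusted p = 0.016), with 1 control inside the NASH range. Cxcl14 (1.12, adjusted p = 0.029) and the dendritic cell receptor Xcr1 (-1.64, adjusted p = 0.032) were also called, and Ccl5 (1.05, adjusted p = 0.04) was the smallest change. In 9 of the 13 the groups did not overlap, and in 71.5% of all genes called. The lipid-associated macrophage list moved with them, from 460 to 522 CPM to 802 to 2516 CPM, and its part was not tested. Without WT control replicate 3 the count was 6 and without replicate 2 it was 8, while all genes called fell from 1652 to 768 and 782. Without the low-Lyz2 libraries, which leaves 1 WT control and assumes that it varies like the other groups, Cxcl13 alone was called (-2.97, adjusted p = 0.018).

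In KI females the NASH diet raised 2 members and lowered 2 (2.31% of all genes), with 18 members and 19.6% of all genes at an unadjusted p under 0.05. Ccl9 rose from 10.4, 26.4, 22.7 and 19.9 CPM to 33.9 to 247 CPM (median 79.3; 2.60, SE 0.51, adjusted p = 0.023), and Cxcl12 from 8.8, 9.91, 8.17 and 11.1 CPM to 12.3 to 44 CPM (median 25.3; 1.62, SE 0.32, adjusted p = 0.023), both with no overlap. Cxcl9 fell from 49.4 to 138 CPM to 30.1 to 56.1 CPM (-1.20, adjusted p = 0.024). Ccr3, the eosinophil receptor, was at 1.42, 7.16, 12.8 and 61.6 CPM in KI controls and at 2.79 to 4.12 CPM on NASH diet (-2.51, SE 0.57, adjusted p = 0.032), so 1 control lay below all NASH libraries and 3 above. No call of the 4 was kept in every fit that left out 1 library: the count was 1 without KI control replicate 1, 0 without KI control replicate 3 and 8 without KI NASH replicate 4. All genes called went from 297 to 6, 4 and 688 in these fits. Without the low-Lyz2 libraries a single KI control is left, the one with 61.6 CPM of Ccr3, and its spread is assumed to be that of the other groups. Ccr3 alone passed there (-4.10, adjusted p = 0.00017), a value that rests on this 1 library.

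On control diet 8 members were higher and 2 lower in KI than in WT females, with 4.64% of all genes called. The receptors were Cx3cr1 (38.3, 40.3, 18.6 and 32 CPM against the WT values above, 3.95, SE 0.62, adjusted p = 0.0015), Ccr1 (1.65, 2.75, 29.7 and 8.31 CPM, 5.60, SE 1.02, adjusted p = 0.0047), Ccr3 (3.18, adjusted p = 0.012) and Cxcr4 (1.80, adjusted p = 0.014). The ligands were Cxcl9 (1.40, adjusted p = 0.0087), Cxcl11 (1.77, 0.332, 2.3 and 0.506 CPM against 0.0386, 0.0585, 0.222 and 0.338 CPM, 2.86, adjusted p = 0.02), Ccl8 (2.58, adjusted p = 0.033) and Cxcl14 (1.25, adjusted p = 0.041). The 2 lower were Cxcl12, at 8.8, 9.91, 8.17 and 11.1 CPM in KI against 36.9, 34.5, 52.1 and 50 CPM in WT controls (-2.19, SE 0.35, adjusted p = 0.0015), and Ccl24 (-0.68, adjusted p = 0.035). In 5 of the 10, Cx3cr1, Ccr1 and Cxcl12 among them, the groups did not overlap, against 87.6% of all genes called. Ccr1 and Cxcl11, with 18 and 14 counts over the WT controls, passed the filter through other groups and could only be called higher here. Cxcl12, which endothelial and stellate cells express strongly, moved with the stellate cell list (18.7 to 36.3 CPM in KI, 65.4 to 191 CPM in WT controls), the hepatocyte list (22.7 to 62.8 CPM and 111 to 326 CPM) and the sinusoidal endothelial list (543 to 828 CPM and 767 to 919 CPM), whose part was not tested. Timd4 was at 98.3 to 500 CPM in these KI controls and at 819 to 1150 CPM in the WT controls, and the lipid-associated list at 552 to 933 CPM and 460 to 522 CPM, without a test of their part in Cx3cr1 or Ccr1.

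Without WT control replicate 1, or KI control replicate 2, 6 members were called, while all genes called fell from 596 to 311 and 261. Without the low-Lyz2 libraries 1 control of each genotype is left, with a spread assumed to be that of the other groups. Ccr3 alone passed there (4.54, adjusted p = 0.015), a value that rests on the KI control with 61.6 CPM, where the other 3 had 1.42 to 12.8 CPM. Cx3cr1 then had 4.04 (adjusted p = 0.59), Cxcl12 -1.65 (adjusted p = 0.74) and Ccr1 4.54 (adjusted p = 0.37). On NASH diet Cxcr6 alone was higher in KI females, at 0.0921 to 1.86 CPM (median 0.837) against 0 to 0.255 CPM (median 0.0746) in WT (3.25, SE 0.72, adjusted p = 0.048, 0.561% of all genes). With 11 counts over the WT NASH libraries, Cxcr6 passed the filter through other groups and could only be called higher here. The groups overlapped, and the call was kept in 1 of 20 fits that left out 1 library. The count rose to 6 without KI NASH replicate 2, where all genes called rose from 72 to 662. The diet effect differed between the genotypes for Cxcl12 alone (2.35, SE 0.43, adjusted p = 0.031, 0.288% of all genes), a call lost in 6 of 20 such fits.

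The 3 neutrophil chemokines Cxcl1, Cxcl2 and Cxcl3 were the members whose KI effect on the NASH diet differed between the sexes in the sorted macrophages, lower in females for all 3 (4.37% of all 13373 genes called). Their values are printed in full because of this difference and were chosen after they were seen. In males Cxcl1 was at 32.5, 142, 117, 178 and 162 CPM in WT NASH and at 404, 148, 176, 453 and 84 CPM in KI NASH macrophages. In females it was at 39 to 300 CPM (median 158) in WT NASH and at 9.1 to 112 CPM (median 22.2) in KI NASH macrophages. The genotypes overlapped in both sexes. The female minus male difference was -3.16 (SE 0.77, adjusted p = 0.0091).

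Cxcl2 was at 277, 883, 626, 882 and 870 CPM in male WT NASH and at 1670, 962, 968, 1288 and 479 CPM in male KI NASH macrophages. Female WT NASH libraries held 429 to 1514 CPM (median 909) and female KI NASH libraries 91.5 to 764 CPM (median 256), a difference between the sexes of -2.05 (SE 0.54, adjusted p = 0.018). Cxcl3 was at 0.25, 3.02, 1.06, 0.959 and 0.488 CPM and at 9.18, 4.8, 6.51, 7.53 and 0.392 CPM in males, and at 0.855 to 1.73 CPM (median 1.29) and 0.0959 to 1.49 CPM (median 0.361) in females (-3.61, SE 0.90, adjusted p = 0.011). In each of the 3 genes male KI NASH replicate 5 lay below the other 4 male KI NASH libraries. Within 1 sex none of the 3 passed between the genotypes on NASH diet, with Cxcl1 in females nearest (-2.18, adjusted p = 0.073). The 3 calls were kept in each of the fits that left out 1 library. Without male WT NASH replicate 4 the count of members was 6, and without male KI NASH replicate 2 or 5 it was 5. All genes called rose as well, from 584 to 720, 701 and 834. Without the low-Lyz2 libraries none passed (Cxcl1 -2.77, adjusted p = 0.081; Cxcl3 -3.17, adjusted p = 0.095; Cxcl2 -1.70, adjusted p = 0.13). The diet effect in WT differed between the sexes for no member by edgeR (0.0224% of all genes), with 8 members and 17.1% of all genes at an unadjusted p under 0.05, and 4 members and 1.9% of all genes by DESeq2.

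**Figure D5:**
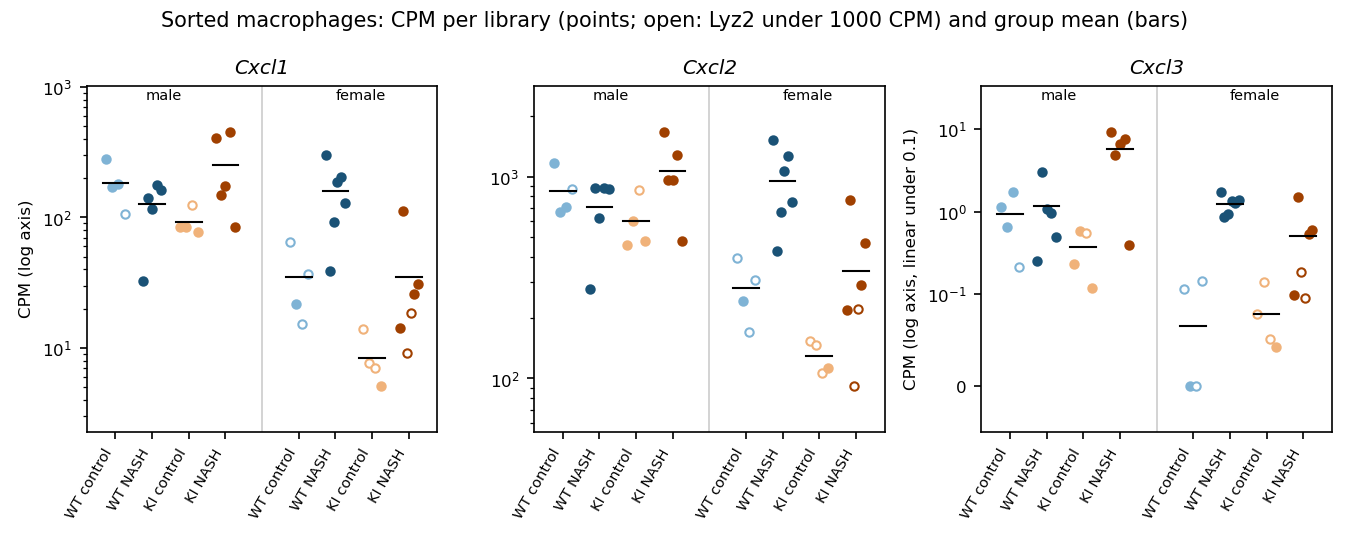
CPM per library on a log axis (linear under 0.1 CPM for Cxcl3) for Cxcl1, Cxcl2 and Cxcl3 in the sorted macrophages, by sex, genotype and diet; each point is 1 library, short bars are group means, and open points are libraries with Lyz2 under 1000 CPM. On the NASH diet the median of female KI libraries is below that of female WT libraries in all 3 genes.

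These 3 genes lie in 1 region of chromosome 5, with Cxcl15 between Cxcl3 and Cxcl1. They share a sequence in their promoters, shown here because they differed together. Cxcl3 spans chr5:90786103-90789600, Cxcl1 chr5:90891241-90893115 and Cxcl2 chr5:90903871-90905938 (GRCm38, the assembly also called mm10, plus strand, from the GENCODE vM21 annotation). The promoter sequences run from 250 bases before to 50 bases after each start (RefSeq, build GRCm38.p6, plus strand, 5′ to 3′), at chr5:90890995-90891294 for Cxcl1, chr5:90903649-90903948 for Cxcl2 and chr5:90785851-90786150 for Cxcl3. Capitals mark GGAATTTCC, letters of a site that NF-kB factors bind.
Cxcl1: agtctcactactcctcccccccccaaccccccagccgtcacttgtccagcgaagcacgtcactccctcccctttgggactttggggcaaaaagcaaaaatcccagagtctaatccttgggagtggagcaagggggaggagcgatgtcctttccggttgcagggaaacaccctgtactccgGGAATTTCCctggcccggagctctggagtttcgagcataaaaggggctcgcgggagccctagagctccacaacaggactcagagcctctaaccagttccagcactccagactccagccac
Cxcl2: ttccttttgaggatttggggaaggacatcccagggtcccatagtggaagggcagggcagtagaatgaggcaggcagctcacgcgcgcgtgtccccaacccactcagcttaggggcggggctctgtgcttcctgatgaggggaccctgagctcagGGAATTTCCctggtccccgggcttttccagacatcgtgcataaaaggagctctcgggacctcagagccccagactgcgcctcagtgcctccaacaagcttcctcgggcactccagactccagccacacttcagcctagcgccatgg
Cxcl3: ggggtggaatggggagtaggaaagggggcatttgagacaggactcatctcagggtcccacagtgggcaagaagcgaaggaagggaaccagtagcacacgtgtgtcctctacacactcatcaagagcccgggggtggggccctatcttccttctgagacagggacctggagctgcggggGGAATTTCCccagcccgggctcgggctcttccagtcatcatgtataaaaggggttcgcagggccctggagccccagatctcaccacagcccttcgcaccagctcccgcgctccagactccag
The first base of the match lies 70 bases before the start in Cxcl1, 96 in Cxcl2 and 72 in Cxcl3, in each on the strand of the gene. Searched on both strands, these letters were in 104 of 32851 RefSeq promoters (0.317%), and in 5 of the 41 members with a promoter in the table, the other 2 being Cxcl10 and Ccr3, on the opposite strand. The motif GAAANNGAA, part of the element that interferon-induced genes carry, was in 2812 promoters (8.56%) and in 8 members, 5 of them with a match on the strand of the gene: Ccl19, Cxcl9, Cxcl10, Cxcl14 and Cxcr1. The purine-rich motif GAGGAAGT, of the kind that the myeloid factor PU.1 binds, was in 1052 promoters (3.2%) and in 1 member, Cxcr3. A match describes the letters and says nothing of binding.

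A second group of neighbours is the receptor cluster on chromosome 9 (GENCODE vM21, GRCm38), with Ccr9 at 123678439 to 123784330, Cxcr6 at 123806475 to 123811760, Xcr1 at 123852315 to 123862029, Ccr1 at 123962124 to 123968692, Ccr3 at 124021972 to 124031689 and Ccr2 at 124101950 to 124113557. Its members did not move as 1 block. In KI male macrophages Ccr9, Cxcr6, Ccr1 and Ccr2 were called, while Ccr3, between Ccr1 and Ccr2, was at 1.49 to 4.17 CPM on control diet and at 1.17 to 4.92 CPM on NASH diet and was not called. In whole liver of WT males Ccr2 rose, Ccr1 and Cxcr6 were not called, and Ccr9 was too low to be tested. Exons of Ccr9, and of Ccl25, Ccl27a, Cx3cr1, Cxcl10, Cxcl11, Cxcl16, Cxcr5 and Xcl1, overlap a gene on the opposite strand in that annotation. Exons of Ccr9 also overlap Gm17200 on the same strand, which strand would not resolve. The kit keeps strand, but how strand was counted is not given, so these values are uncertain to that extent.

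Genes that act with the receptors, a list of 38 atypical receptors, other ligands, G protein subunits, regulators and downstream kinases and exchange factors, were read beside the share of all genes called. In male WT livers 15 of 34 tested were higher on NASH diet, where 20.9% of all genes were called. Among them were Cd74, a receptor of the cytokine Mif (1.94, adjusted p = 0.012), Rgs10, which switches off G proteins (1.5, adjusted p = 0.0039), and the motility adaptor Elmo1 (1.33, adjusted p = 0.011). In KI against WT NASH livers of males 14 of 34 were lower and 1 higher, where 37% of all genes were called, with Cd74 at -2.16 (adjusted p = 0.0018), the blood vessel scavenger Ackr1 at -1.99 (adjusted p = 0.0011) and Rgs10 at -1.90 (adjusted p = 0.00019). In female livers 1 of 36 was lower on NASH diet in KI (8.83% of all genes) and 2 of 36 were higher in KI on control diet (7.57%). The decoy receptor Ackr2 was lower on NASH than on control diet in KI (-1.88, adjusted p = 0.0055) and was higher in KI than in WT on control diet (1.94, adjusted p = 0.0042), along with Ccrl2, which presents chemerin (1.46, adjusted p = 0.023). In KI male macrophages 4 of 35 rose on NASH diet and 9 fell, where 24% of all genes were called: the Cxcl12 scavenger Ackr3 had 3.49 (adjusted p = 0.0014), Ackr2 1.92 (adjusted p = 0.012) and Ccrl2 1.09 (adjusted p = 0.021). In WT male macrophages 3 of 35 rose and 1 fell (8.19% of all genes), with Ackr3 (2.81, adjusted p = 0.016), Ackr2 (2.65, adjusted p = 0.015) and Dpp4, a protease that trims chemokines (2.10, adjusted p = 0.025). In WT female macrophages 3 of 34 rose and 3 fell (12.9% of all genes), with Ccrl2 at 1.31 (adjusted p = 0.022). Ccrl2 was also the list's gene whose KI effect on NASH diet was lower in female than in male macrophages (-1.71, adjusted p = 0.015, 4.37% of all genes called), as for Cxcl1, Cxcl2 and Cxcl3.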

How the data were processed

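Counts of reads per gene symbol, not normalized, were deposited by the authors in 3 tables: female liver (24982 symbols), macrophages of both sexes (24982) and male liver (23839). The 3 share 23732 symbols. The build, mm10, comes from the submitters' processing notes, and per the labels' protocols the TruSeq Stranded mRNA kit was used. Aligner, counter, annotation and strandedness of counting: not given in the sources used here. Reads of near-identical paralogs, such as the Ccl21 copies, may be split. From these counts, edgeR 4.0.16 in R 4.3.3 gave TMM-scaled CPM and log2 fold changes. Genes were kept by filterByExpr (min.count 10, min.total.count 15), fitted by quasi-likelihood with 1 mean per group, and adjusted by Benjamini-Hochberg over all genes tested with a threshold of 0.05. Each SE is the log2 fold change divided by the root of F, an approximation. Each tissue and sex was fitted on its own, and 6 comparisons used joint fits of both sexes or both tissues, on the symbols common to the tables, which makes 26. A self-test on simulated counts preceded the fits. Total counts ran from 11245097 to 29966174 per library, so 0.5 CPM is a handful of reads and low members have wide errors.

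The rounded mean of the male liver WT control replicates 3 and 4 served as 1 library. Libraries that shared a replicate number did not deviate together, so the main fit has no block. The alternatives were DESeq2 1.42.0, its size factors in edgeR, no filter, a replicate block, each library left out, and fits without the libraries of contradicting sex genes or of low Lyz2. The members and lists were chosen with earlier results of these data known. Values of each library are given for the members called most often (14 by the rule), called members are named up to 12 in a comparison by size of their log2 fold change, and the nearest not called may be named. Of the helper genes at most 3 with the largest changes are named. Promoters were matched by symbol to RefSeq (41 of 57 members) and positions to GENCODE vM21 (56 of 57). 1 member that enters the counts is not reported here, so a comparison may name 1 fewer than it counts.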

Additional observations from a re-analysis of the deposited data

Results flagged for a closer look

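In the macrophages, 7 group values of a single library stood apart from the rest of their group by Dixon's criterion on the log2 scale, out of 13 among the 195 groups checked in both tissues. Chance alone flags about 1 in 20 groups. KI NASH replicate 5 of males was low in Ccl9 (48.02 CPM), Ccr1 (1.827 CPM) and Ccl22 (1.131 CPM), the library whose Kupffer cell list was the highest of its group. WT NASH replicate 2 of males was low in Cxcl13 (11.01 CPM). In females, KI control replicate 2 was high in Ccl2 (102.6 CPM), WT control replicate 3 in Ccl9 (18.93 CPM) and WT control replicate 2 in Ccr2 (4.677 CPM).

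In whole liver, KI NASH replicate 1 of males was high in Ccl22 (1.095 CPM) and WT NASH replicate 1 in Cxcl11 (1.832 CPM). In females, WT NASH replicate 1 was low in Ccr2 (2.588 CPM), and KI NASH replicate 2 was low in Ccl4 (0.1354 CPM). KI control replicate 4 was high in Cxcl14 (1.883 CPM), and WT control replicate 2 stood apart in Ccr1 (0.7139 CPM).

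Effects that differed between sexes or genotypes by the test of the difference itself were as follows. In liver the KI effect on NASH diet was higher in females than in males for Ccl2 (2.741), Ccr2 (2.213), Ccr7 (2.315) and Cxcl16 (0.8844), and the diet effect in WT was lower in females for Ccr2 (-1.984). The diet effect in male liver was lower in KI than in WT for Ccr2 (-2.743). In macrophages the KI effect on NASH diet was lower in females for Cxcl1 (-3.156), Cxcl2 (-2.05) and Cxcl3 (-3.611), and the diet effect in females was higher in KI for Cxcl12 (2.347). All are signed log2 values of the edgeR fits with an adjusted p under 0.05. Higher and lower give the direction of the difference and not the size of an effect.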

How the results depend on the processing

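DESeq2 in place of edgeR moved these counts of members called by over 1.5 times. All genes called rose too, and are given in parentheses from edgeR to DESeq2. In male liver the genotype difference of the diet effect went to 4 (147 to 710). In female liver the diet in WT went to 5 (7 to 321) and the diet in KI to 8 (1176 to 1777). The genotype on control diet there went to 8 (1008 to 1595) and the genotype difference to 4 (635 to 1229). In male macrophages the diet in WT went to 11 (1068 to 1703), the genotype on NASH diet to 3 (408 to 840) and the genotype difference to 1 (0 to 249). In female macrophages the diet in KI went to 13 (297 to 952), the genotype on NASH diet to 8 (72 to 554) and the genotype difference to 4 (37 to 157). Between the sexes in macrophages the diet effect in WT went to 4 (3 to 265) and the KI effect on NASH diet to 5 (584 to 707). The cause was not tested.

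The replicate numbers did not pair the libraries. With the replicate block the genotype on control diet in female liver went to 1 (all genes called, 1008 to 784). In female macrophages the diet in WT went to 7 (1652 to 747), the diet in KI to 0 (297 to 2) and the genotype on NASH diet to 0 (72 to 6). That last count was also 0 with DESeq2's size factors in edgeR (21 of all genes) and with no filter (0 of all genes). Without the libraries of contradicting sex genes the genotype difference in male liver went to 3 (147 to 626) and the diet in WT male macrophages to 2 (1068 to 284), with fewer samples. Without the low-Lyz2 libraries the diet in WT male macrophages went to 0 (1068 to 55). In female macrophages the diet in WT, the diet in KI and the genotype on control diet each went to 1 and the genotype on NASH diet to 0, and the KI effect between the sexes went to 0. There Ccl24, lower in KI than in WT female macrophages on control diet, turned to 0.0764 (adjusted p = 0.99).

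With each library left out in turn, the counts in male liver ran from 4 to 12 (diet in WT), 0 to 0 (diet in KI), 0 to 1 (genotype on control diet), 5 to 13 (genotype on NASH diet) and 0 to 3 (genotype difference). For these 5 comparisons female liver gave 0 to 3, 3 to 7, 1 to 4, 0 to 0 and 0 to 4, male macrophages gave 1 to 8, 14 to 21, 0 to 0, 0 to 4 and 0 to 0, while female macrophages gave 6 to 13, 0 to 8, 6 to 11, 0 to 6 and 0 to 3. Between the sexes they ran from 0 to 1 (diet in WT) and 2 to 7 (KI effect on NASH diet) in liver and from 0 to 3 and 3 to 6 in macrophages. Macrophages against liver gave 23 to 27 in males and 29 to 31 in females. Of 2024 single calls under these fits 1752 stayed past the threshold and 272 did not, and none turned its direction. Low members such as Cxcr6, Ccr9 and Cxcr5 rest on few reads, and differences in them may not be detectable at this depth.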

Other observations

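Of the 42 members, 10 were called in none of the 20 comparisons within a tissue and sex. Among them the ligands that macrophages carried far above liver were Ccl7, at 12.7 to 126 CPM over the female and 19 to 120 CPM over the male macrophage libraries, and Ccl12, a further Ccr2 ligand, at 1.92 to 8.86 CPM in male macrophages and at most 0.218 CPM in male liver. Cxcr3, the receptor of Cxcl9, Cxcl10 and Cxcl11, stayed between 1.67 and 7 CPM in all macrophage libraries, and Ccl27a between 2.35 and 9.85 CPM in all liver libraries. The neutrophil receptor Cxcr2 was at most 0.616 CPM in the sorted macrophages, which carried its ligand Cxcl2 at 91.5 to 1670 CPM. Xcl1 (0.522 to 3.65 CPM in male KI NASH macrophages, 0 to 0.235 CPM in male KI controls), Ccl17 and Ccl19 were the others tested. Male WT NASH macrophages held the highest group mean of Xcl1, at 1.34 CPM.

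Ccl20 and Cxcl5 were too low to be tested in any of these comparisons. Cxcl5, a ligand of Cxcr2, was at 0.236 to 1.18 CPM in the 4 male WT NASH livers, at 0 in the male WT control livers and at 0 to 0.182 CPM in male KI NASH livers. Ccl20, the ligand of Ccr6, was at 0 to 2.05 CPM in male WT NASH livers and without a count in the other male liver groups.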
